A study of Bos taurus with 28 samples.

Results

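Read counts of PCK1 (ENSBTAG00000001936), HSD17B12 (ENSBTAG00000000087) and ACAT2 (ENSBTAG00000002827) were examined in subcutaneous adipose tissue (AT) of dairy cows around calving. These are 3 of the 24616 genes listed, chosen by name as enzymes of lipid synthesis and glyceroneogenesis. They were chosen with earlier results of these data known, so the shares of all genes printed beside their calls are descriptions. All 3 had enough reads to be tested in every comparison. The 28 libraries, each from a flank biopsy of a Holstein cow, fell into 9 taken before calving (PreP, day -11), 10 at the first postpartum biopsy (PP1, day 6) and 9 at the second (PP2, day 13). The cows were healthy and multiparous, were pregnant and not lactating at PreP, and were lactating at PP1 and PP2, so the groups differ in pregnancy, lactation, diet and time together. The libraries came from 11 cows, of which 8 had all 3 time points.

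PCK1 encodes the cytosolic phosphoenolpyruvate carboxykinase. In liver it serves gluconeogenesis, and in adipocytes it serves glyceroneogenesis, which makes glycerol phosphate from pyruvate or lactate so that fatty acids released by lipolysis can be esterified again. HSD17B12 encodes the ketoacyl-CoA reductase of the fatty acid elongation complex in the endoplasmic reticulum. ACAT2 encodes the cytosolic acetoacetyl-CoA thiolase, which joins acetyl-CoA units at the entry of the mevalonate and sterol pathway. In ruminants AT is a main site of fatty acid synthesis, and around calving it changes from storing to releasing lipid.

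Total counts ran from 15293154 to 22284884 reads per library, so that 3 reads corresponded to 0.127 to 0.200 CPM (the gene's reads as a share of the library's total, scaled by TMM, a correction for library composition). PPARG, the adipocyte transcription factor and the only one of 12 listed adipocyte markers with an ID here, had 19.97 to 246 CPM. The mammary epithelial keratins KRT8 and KRT18 summed to at most 3.33 CPM, and CSN2, a milk protein gene, had too few reads to be tested. These were checked because the series' design text mentions mammary glands, although the sample labels and that text also give subcutaneous AT biopsies. Skeletal muscle genes PYGM and LMOD2 summed to 8240 CPM in the PP2 library of cow B5090 and to at most 3.14 CPM in each other library. Cow B5169 stood apart. Her PreP library had the highest sum of the macrophage markers CD68 and MSR1 among PreP libraries (122 CPM, PreP median 60.4), and her PP1 library had the lowest among PP1 libraries (45.1 CPM, PP1 median 291). The edgeR fits of the 3 genes and the counts of pathway genes are therefore given with and without her.

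PCK1 levels were spread widely over the libraries of each time point. At PreP the lowest library had 17.4 CPM, the median was 117 and the highest had 186. At PP1 these values were 2.15, 7.96 and 196, and at PP2 they were 2.03, 12.7 and 33.3. The PP1 and PP2 medians thus lay below the lowest PreP library, and 7 of 10 PP1 and 6 of 9 PP2 libraries did so too. The groups overlapped through B5169, which had the lowest PreP library and the highest PP1 and PP2 libraries. In the other cows PreP ran from 46.2 CPM upwards, while PP1 reached 52.0 CPM in B4987 and 50.7 in B5079, and PP2 reached 23.9. The lowest count was 33 reads in the PP2 library of B4886, with an exact Poisson 95% interval of 1.40 to 2.86 CPM that covers counting error only.

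For HSD17B12 the lowest, median and highest PreP libraries had 14.9, 190 and 378 CPM. The corresponding PP1 values were 23.1, 48.7 and 393, and those of PP2 were 5.98, 55.8 and 82.3. The lowest PreP library and the highest PP1 and PP2 libraries were again those of B5169. Of the 9 PreP libraries 7 lay above every PP2 library. Without B5169 the lowest PreP library had 72.1 CPM and the highest PP2 library had 70.3 CPM. How many other genes separate in this way was not counted. Apart from B5169, B5079 (102 CPM) and B5102 (23.1 CPM), the PP1 libraries lay between 39.8 and 63.2 CPM. The PP1 SD was 110 CPM where that of PP2 was 27.1, with B5169 (393 CPM) by far the most distant PP1 library.

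ACAT2 varied the least at each time point, with a highest library 5.70 to 6.13 times the lowest. At PreP the lowest, median and highest libraries had 15.3, 43.9 and 87.0 CPM, at PP1 11.2, 17.2 and 68.5, and at PP2 8.40, 13.0 and 49.7. The groups overlapped, with 3 of 9 PreP libraries above the highest PP2 library and 5 of 9 PP2 libraries below the lowest PreP library. The lowest PreP and the highest PP1 library were from B5169, as before, but 2 further PreP libraries, B5129 (16.5 CPM) and B5165 (22.1 CPM), were also near the postpartum medians. The highest PP2 library was that of B4987, at 49.7 CPM against 48.0 in the same cow at PreP. CYP51A1, the lanosterol demethylase of sterol synthesis, was also highest in this PP2 library (64.3 CPM, PP2 median 10), where PCK1 had 5.37 CPM.

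**Figure D1:**
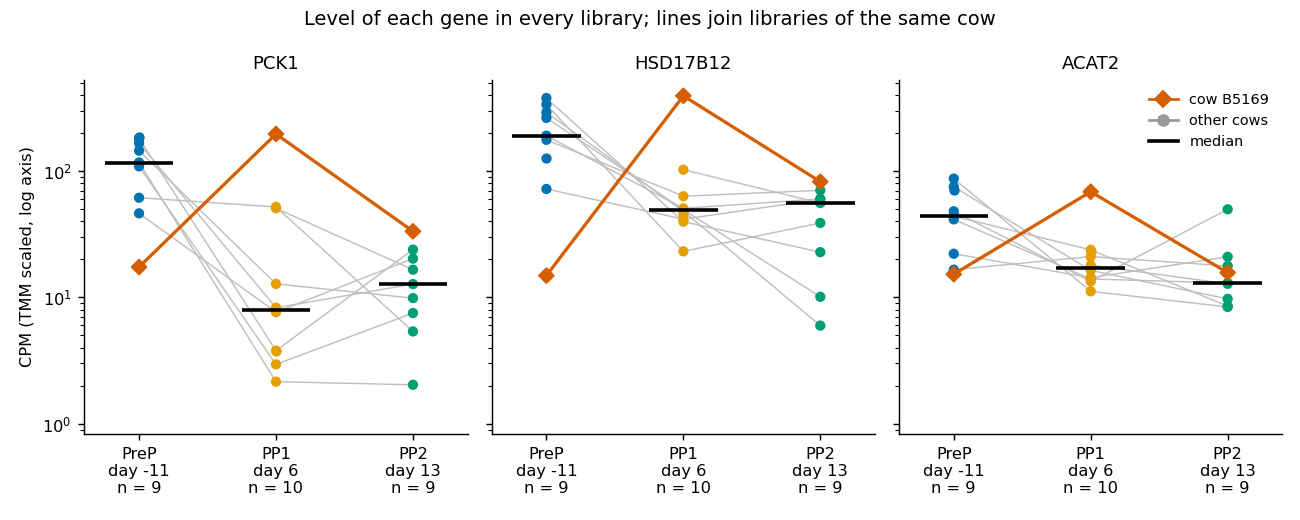
CPM on a log axis (vertical) of PCK1, HSD17B12 and ACAT2 in each library at PreP, PP1 and PP2, with grey lines joining libraries of the same cow, black bars for group medians and orange diamonds for cow B5169. Medians for PCK1 were 117, 7.96 and 12.7 CPM, and B5169 is the cow whose lines run upwards to PP1 in all 3 panels.

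To ask how the onset of lactation changed these genes, PP1 was first compared with PreP. All 3 genes had lower fitted levels at PP1 and 0 of 3 were differentially expressed genes (DEGs, FDR under 0.05 and absolute log2 fold change over 1), where 4.03% of all 18467 genes tested were DEGs and 0.693% were DEGs with lower levels. The log2 fold change was -1.75 (SE 0.730, edgeR FDR 0.142) for PCK1. It was -1.26 (SE 0.517, FDR 0.136) for HSD17B12 and -1.06 (SE 0.360, FDR 0.0775) for ACAT2, by the same edgeR quasi-likelihood test.

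These fitted fold changes compare group means of counts, to which single high libraries contribute much. The PP1 library of B5169 held 57.7% of the summed PP1 CPM of PCK1, 45.9% of that of HSD17B12 and 30.6% of that of ACAT2. On the log2 CPM scale, where a single library weighs less, the difference in means between PP1 and PreP was -3.01 for PCK1 (exact permutation test, two-sided, p = 0.0024). It was -1.36 for HSD17B12 (exact p = 0.0356) and -1.03 for ACAT2 (exact p = 0.0195). These exact p-values are not adjusted over the 9 tests of this kind and do not use the pairing by cow. Exact sign-flip permutation tests within the 8 cows with both libraries gave p = 0.0391 for PCK1, 0.172 for HSD17B12 and 0.141 for ACAT2.

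Without the libraries of B5169, all 3 genes were DEGs at PP1 by edgeR, where 3.99% of the genes tested were DEGs with lower levels. The log2 fold changes were then -2.98 for PCK1 (FDR 0.0017), -2.15 for HSD17B12 (FDR 7.04e-05) and -1.55 for ACAT2 (FDR 0.000544). Leaving out each of the 10 other cows in turn gave 0 DEGs among the 3 genes, and over all 11 such fits the log2 fold change ran from -2.98 to -1.50 for PCK1, from -2.15 to -1.03 for HSD17B12 and from -1.55 to -0.82 for ACAT2. Without the PP1 library of B5169 alone, the FDR was 0.0033 for PCK1, 0.0017 for HSD17B12 and 0.0022 for ACAT2, where 3.69% of genes were DEGs with lower levels.

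At PP2 all 3 genes were downregulated DEGs against PreP, where 5.47% of the 18558 genes tested were DEGs and 1.95% were DEGs with lower levels. PCK1 fell by 2.96 on the log2 scale (SE 0.487, edgeR FDR 0.0024), and stood at place 36 of 18558 by p-value. HSD17B12 fell by 2.19 (SE 0.519, FDR 0.0173) and ACAT2 by 1.44 (SE 0.391, FDR 0.0323). The libraries are paired by cow, and in the edgeR fit with cow as a block PCK1 stayed a DEG while HSD17B12 (FDR 0.155) and ACAT2 (FDR 0.216) did not. The difference in mean log2 CPM was -3.04 for PCK1 (exact permutation p = 0.000165), -2.16 for HSD17B12 (exact p = 0.0053) and -1.41 for ACAT2 (exact p = 0.0050). Within the 8 cows with both libraries the exact sign-flip p was 0.0156, 0.0547 and 0.102. In bulk tissue, fewer adipocytes and less RNA of these genes per adipocyte cannot be told apart.

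The call of PCK1 at PP2 held in each of the 10 fits that left out a cow. HSD17B12 was a DEG in 9 of these fits, and lost the call without B5102 (FDR 0.0511). Without B5169 the 3 genes were DEGs at PP2 as well, where 2.7% of genes were DEGs with lower levels. ACAT2 was a DEG in 5 of the 10 fits, and its FDR rose to 0.0641 without B5176, 0.0694 without B5064, 0.0728 without B4886, 0.0786 without B5090 and 0.107 without B5102. Without the PP2 library of B5090, which carried the muscle genes, the log2 fold changes were -2.92, -2.10 and -1.35 and the 3 genes were again DEGs by edgeR (FDR 0.0023, 0.0183 and 0.0387), where 2.56% of genes were DEGs with lower levels.

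**Figure D2:**
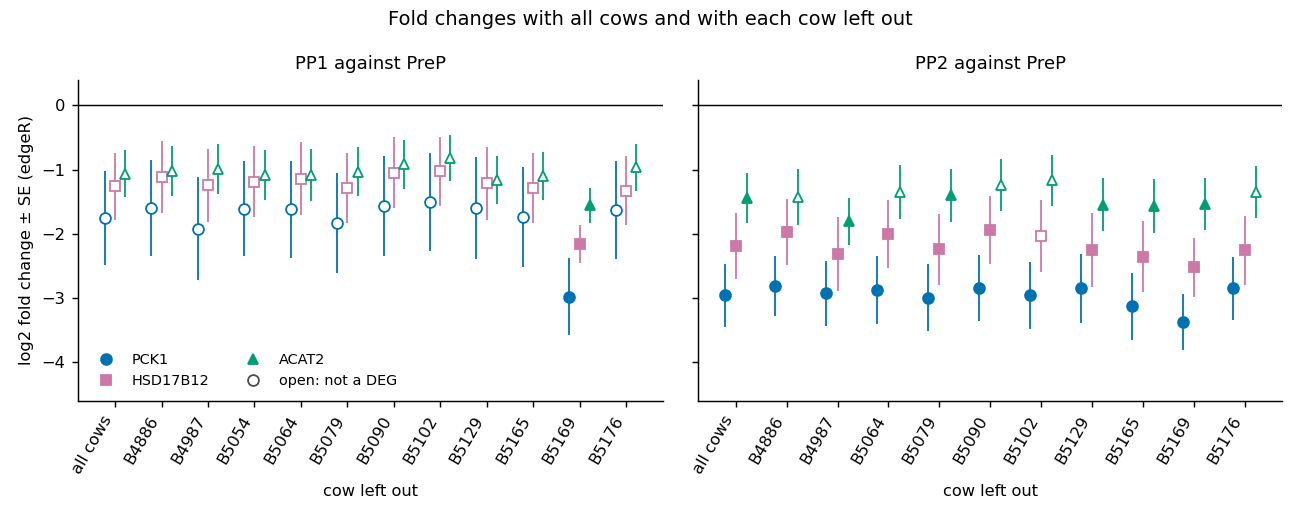
The edgeR log2 fold change with its SE (vertical) of each gene with all cows and with the cow named on the horizontal axis left out, for PP1 against PreP (left) and PP2 against PreP (right). Filled symbols are DEGs, and on the left they appear only when B5169 is left out, where PCK1 is at -2.98.

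Between PP1 and PP2 0 of the 3 genes were DEGs. The fitted log2 fold change of PP2 against PP1 was -1.27 for PCK1 (SE 0.771, edgeR FDR 0.970), -0.97 for HSD17B12 (SE 0.533, FDR 0.952) and -0.40 for ACAT2 (SE 0.375, FDR 0.970). These values depended on B5169, as without her they were -0.40, -0.36 and 0.01 (edgeR FDR 0.925, 0.897 and 0.994), and without her PP1 library alone -0.13, -0.19 and 0.01. With cow as a block they were -0.20, -0.82 and -0.39. By edgeR's quasi-likelihood test 0% of the 18518 genes tested were DEGs, with 1037 genes at an unadjusted p under 0.05. The likelihood ratio test called 160 and DESeq2 called 0. The size of the difference for PCK1 depended on the scale, as that in mean log2 CPM was -0.03 (exact permutation p = 0.972). The corresponding values were -0.80 for HSD17B12 (exact p = 0.179) and -0.38 for ACAT2 (exact p = 0.308).

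Changes within the same animal were then examined. PCK1 was lower at PP1 than at PreP in 7 of 8 cows and at PP2 in 7 of 8 cows. Its changes at PP1 ran from -5.73 on the log2 scale in B4886 to 3.49 in B5169, with a median of -3.91, and the mean change was -2.95 (SD 3.18, exact sign-flip permutation test, two-sided, p = 0.0391). At PP2 they ran from -5.81 in B4886 to 0.94 in B5169, with a median of -3.60 and a mean of -2.99 (SD 2.03, exact p = 0.0156). With 8 cows the smallest p such a test can give is 0.0078, and the 9 sign-flip tests were not adjusted for their number. In B4886 PCK1 went from 117 to 2.15 and then to 2.03 CPM. In B4987, in contrast, it stood at 61.4 CPM at PreP and 52.0 at PP1 and reached 5.37 only at PP2.

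HSD17B12 was also lower in 7 of 8 cows at either time point. Its mean change was -1.45 at PP1 (SD 2.67, exact p = 0.172) and -2.28 at PP2 (SD 2.63, exact p = 0.0547). The range at PP2, from -5.59 in B4886 to 2.46 in B5169, was the widest of the 3 genes. ACAT2 was lower in 6 of 8 cows at PP1 and 5 of 8 at PP2, with mean changes of -0.95 (SD 1.61, exact p = 0.141) and -1.28 (SD 1.48, exact p = 0.102). At PP2 the changes of ACAT2 ran from -3.36 to -1.67 in 4 cows and from -0.08 to 0.10 in the other 4. Without B5169 the mean change of PCK1 was -3.87 at PP1 and -3.55 at PP2 (both with an exact p of 0.0156). For HSD17B12 it was -2.33 and -2.96, again with an exact p of 0.0156 at either time point. B5169 was the only cow in which either gene rose against PreP. With 7 cows that all fell, 0.0156 is also the smallest p possible, so leaving her out fixed these p-values. ACAT2 then had -1.39 at PP1 (exact p = 0.0312) and -1.47 at PP2 (exact p = 0.0938). Leaving out B4886, B5064, B5090, B5102 or B5129 instead raised the exact p of PCK1 at PP1 to 0.0781.

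In the edgeR fit with cow as a replicate block, on the 8 cows with both libraries, the log2 fold change of PCK1 at PP2 was -3.16 (FDR 0.0252), where 1.39% of genes were DEGs with lower levels. The values of HSD17B12 and ACAT2, which were not called, were -2.47 and -1.26. At PP1 the paired fit gave -3.45 for PCK1 (SE 1.03, FDR 0.104), -1.90 for HSD17B12 (SE 0.740, FDR 0.180) and -1.04 for ACAT2 (SE 0.488, FDR 0.256). The values of PCK1 and HSD17B12 were thus farther from 0 than in the unpaired fit. Again 0 of 3 were DEGs, where 0.0545% of genes were DEGs with lower levels, and 47 genes in all in place of 744. At PP2 it called 401 in place of 1015. With the block and without B5169, all 3 genes were DEGs at PP1 (log2 fold changes -3.99, -2.35 and -1.42, FDR 0.0030, 0.0017 and 0.0171), where 4.3% of genes were DEGs with lower levels and 1526 genes were called in all. At PP2 this fit called PCK1 (-3.58, FDR 0.000971) and HSD17B12 (-2.98, FDR 0.0153) but not ACAT2 (-1.48, FDR 0.101), where 2.84% of genes were DEGs with lower levels.

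All 3 genes were lower in most cows, but each gene alone was lower in 5 to 7 of 8 cows. Such joint counts can arise without a link between the genes, and whether the falls coincided beyond that was not tested. All 3 were lower at PP1 than at PreP in 6 of 8 cows, and in 3 of these each was lower by more than 1 on the log2 scale. B5169 was higher in all 3 and B5129 was mixed, with ACAT2 higher by 0.34. At PP2 all 3 were lower in 5 of 8 cows, in 4 of them by more than 1 each. B5169 was again higher in all 3, although ACAT2 by 0.04 only, and in B4987 and B5129 ACAT2 was higher by 0.05 and 0.10 while PCK1 and HSD17B12 were lower. Between PP1 and PP2 no such common direction was seen, with 3 of 9 cows lower in all 3 genes, 1 cow (B5165) higher in all 3 and 5 cows mixed.

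PCK1 had the most negative change of the 3 genes in 6 of 8 cows at PP1 and in 4 of 8 at PP2. The change of PCK1 at PP1 minus that of HSD17B12 was -1.51 on average (SD 1.32, negative in 7 of 8 cows, exact sign-flip permutation p = 0.0312), and minus that of ACAT2 it was -2.01 (SD 2.32, 6 of 8 cows, exact p = 0.0547). At PP2 the corresponding differences were -0.71 (5 of 8 cows, exact p = 0.148) and -1.71 (6 of 8 cows, exact p = 0.0547). These 4 are among 9 such differences tested, without adjustment. ACAT2 had the least negative or most positive change in 6 of 8 cows at both time points.

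**Figure D3:**
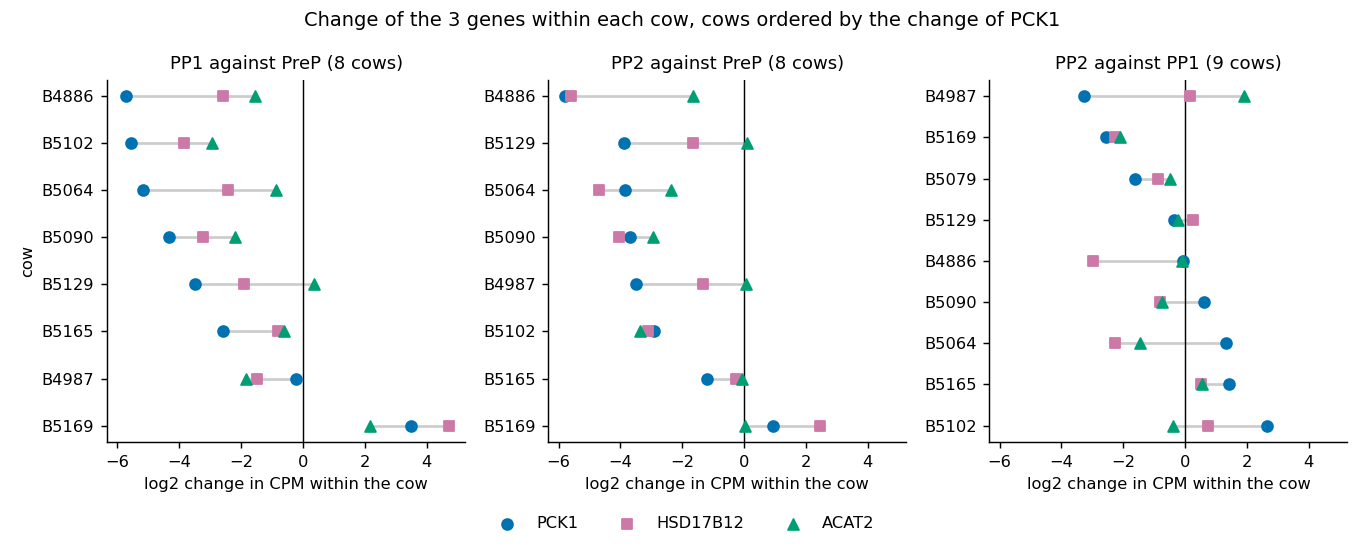
Log2 change in CPM (horizontal) of PCK1 (circles), HSD17B12 (squares) and ACAT2 (triangles) within each cow (vertical), for the 3 pairs of time points, with cows ordered by the change of PCK1. Against PreP nearly all symbols lie left of 0, except for B5169, which reaches 4.72 at PP1 for HSD17B12.

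Whether the genes varied together between cows was asked within each time point, and again for the within-cow changes, which gave 15 relations. For PCK1 and HSD17B12, Pearson's r of log2 CPM at PreP was 0.875 (n = 9, exact permutation p = 0.0073, adjusted 0.0218) and Spearman's rho was 0.583 (exact p = 0.108, adjusted 0.202). At PP1 r was 0.830 (n = 10, permutation p = 0.0024, adjusted 0.0180) and rho was 0.612 (permutation p = 0.0663, adjusted 0.143). At PP2 r was 0.687 (n = 9, exact permutation p = 0.0399, adjusted 0.0665) and rho was 0.433 (exact p = 0.25, adjusted 0.312).

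These relations rested largely on a few libraries. Without the 2 libraries farthest from the median of PCK1, r was 0.179 at PreP (exact permutation p = 0.707), 0.667 at PP1 (exact p = 0.105) and 0.167 at PP2 (exact p = 0.730), and B5169 was among those left out each time. Without B5169 alone r was 0.621, 0.674 and 0.630, and without B4886 r at PP2 was 0.347 (exact permutation p = 0.407). The relation at PP1 then had an exact permutation p of 0.0419, and those at PreP and PP2 had 0.0981 and 0.0922.

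The within-cow changes of PCK1 and HSD17B12 had higher r than their levels, without a test of that difference. At PP1 r was 0.913 (n = 8, exact permutation p = 0.0042, adjusted 0.0212) and rho 0.857 (exact p = 0.0107, adjusted 0.109). At PP2 r was 0.904 (n = 8, exact permutation p = 0.0013, adjusted 0.0180) and rho 0.810 (exact p = 0.0218, adjusted 0.109). Without the 2 cows farthest from the median, r was 0.785 (exact p = 0.0694) and 0.622 (exact p = 0.171), and without B5169 alone it was 0.717 (exact p = 0.0685) and 0.783 (exact p = 0.0228).

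For ACAT2, r was higher with HSD17B12 than with PCK1 at PP1, at PP2 and in both sets of within-cow changes, without a test of that difference. With HSD17B12 it was 0.691 at PreP (exact permutation p = 0.0248, adjusted 0.0532), 0.854 at PP1 (permutation p = 0.0162, adjusted 0.0406) and 0.522 at PP2 (exact p = 0.151, adjusted 0.174), and rho was 0.650, 0.491 and 0.667 (adjusted permutation p 0.143, 0.233 and 0.143). The PP1 value was carried by B5169, since r was 0.387 without it (exact p = 0.313) and -0.02 without B5102 and B5169 (exact p = 0.979). Changes of the 2 genes within cows had r of 0.880 at PP1 (n = 8, exact permutation p = 0.0058, adjusted 0.0217) and 0.711 at PP2 (exact p = 0.0489, adjusted 0.0674), with rho of 0.810 and 0.548 (adjusted exact p 0.109 and 0.233). Without the 2 farthest cows these r were 0.461 (exact permutation p = 0.354) and 0.833 (exact p = 0.100), and without B5169 alone 0.681 (exact p = 0.0933) and 0.702 (exact p = 0.0950).

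Between PCK1 and ACAT2 r was 0.692 at PreP (n = 9, exact permutation p = 0.0319, adjusted 0.0599), 0.552 at PP1 (permutation p = 0.0957, adjusted 0.120) and -0.195 at PP2 (exact p = 0.599, adjusted 0.599), and rho was 0.717, 0.139 and -0.183 (adjusted permutation p 0.138, 0.758 and 0.743). Without the 2 farthest libraries these r were 0.279, 0.116 and -0.498, and without B5169 alone they were 0.512, -0.0958 and -0.244. Their within-cow changes had r of 0.712 at PP1 (n = 8, exact permutation p = 0.0494, adjusted 0.0674) and 0.405 at PP2 (exact p = 0.331, adjusted 0.355), with rho of 0.548 and -0.02 (adjusted exact p 0.233 and 0.977). Without the 2 farthest cows r was 0.622 and -0.17, and without B5169 alone it was 0.207 (exact permutation p = 0.651) and 0.213 (exact p = 0.655). Without B4987, the cow with the highest PP2 library of ACAT2, r of the PP2 levels was 0.126.

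**Figure D4:**
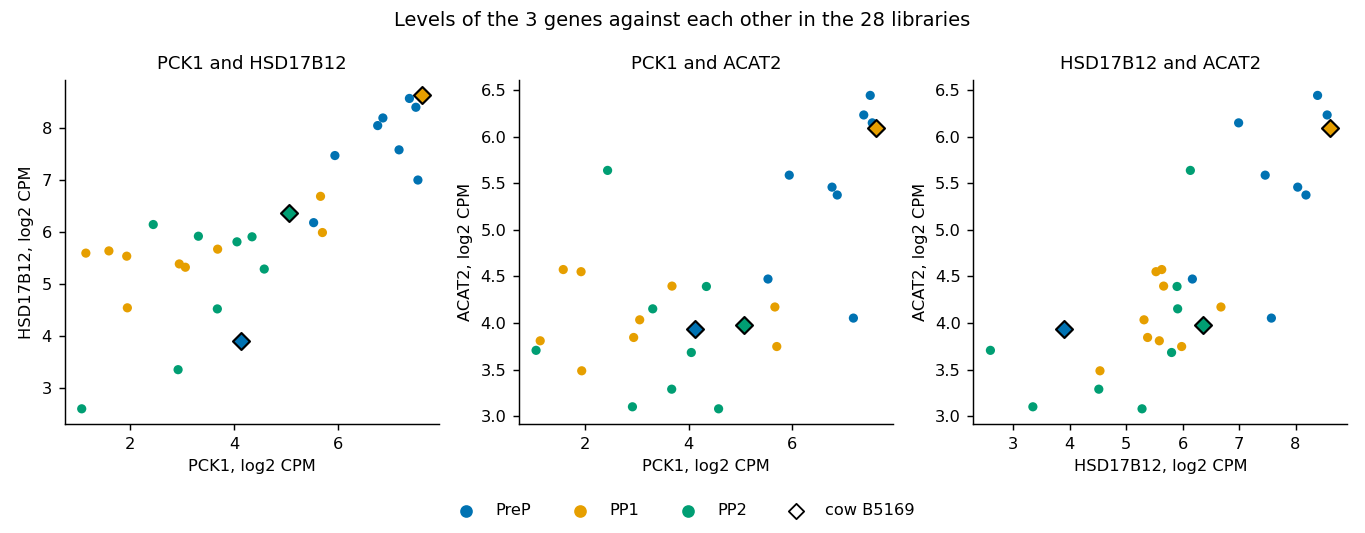
Log2 CPM of each pair of genes in the 28 libraries (1 gene per axis), coloured by time point, with diamonds for cow B5169. Most PreP libraries lie at the upper right, that of B5169 does not, and within PP1 the B5169 library lies with PreP, at 8.62 for HSD17B12.

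Ratios between the genes are set here against time only, as counts were not corrected for gene length. The mean log2 ratio of PCK1 to HSD17B12 counts was -0.72 at PreP (SD 0.722), -2.37 at PP1 (SD 1.37) and -1.60 at PP2 (SD 1.02). That of PCK1 to ACAT2 was 1.24 (SD 0.838), -0.75 (SD 1.84) and -0.40 (SD 1.59). At PreP the lowest PCK1 to ACAT2 ratio of a library was 0.19, and at PP2 it was -3.20. The ratio of HSD17B12 to ACAT2 had means of 1.95, 1.62 and 1.2, with SDs of 1.06, 0.606 and 1.14.

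PPARG, the only listed adipocyte marker with an ID, served as the reference for adipocyte RNA. A single gene whose own level can change does not measure adipocyte content, so the ratios describe the genes relative to PPARG only. The difference of PPARG in mean log2 CPM was -0.52 at PP1 (exact permutation p = 0.0514) and -1.11 at PP2 (exact p = 0.0028) against PreP. It was not a DEG by edgeR (FDR 0.269 and 0.0917). Relative to PPARG, PCK1 was still lower, with a difference in the mean log2 ratio of -2.49 at PP1 (exact permutation p = 0.0018) and -1.93 at PP2 (exact p = 0.000411). The difference for HSD17B12 was -0.84 at PP1 (exact p = 0.118) and -1.05 at PP2 (exact p = 0.0928), and that for ACAT2 was -0.51 (exact p = 0.184) and -0.30 (exact p = 0.587). Without B5169 the differences for HSD17B12 were -1.45 (exact p = 0.000658) and -1.48 (exact p = 0.0093). Those for ACAT2 were then -0.77 (exact p = 0.0512) and -0.34 (exact p = 0.562), and those for PCK1 -3.14 (exact p = 8.23e-05) and -2.29 (exact p = 0.000155). The exact tests on PPARG and on these ratios do not use the pairing by cow, and the ratios were not tested within cows. In the PreP library of B5169 PPARG was at its PreP median of 160 CPM, while PCK1 and HSD17B12 were at their PreP minimum.

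Markers of other cells moved in the same comparisons. The summed CPM of CD68 and MSR1 ran from 24.6 to 122 at PreP, from 45.1 to 444 at PP1 and from 47.8 to 306 at PP2, and both were DEGs with higher levels at PP1, where 3.34% of all genes were (2 of 15 listed macrophage markers had an ID). At PP2 CD68 was a DEG with a higher level (log2 fold change 1.48, edgeR FDR 0.0206) and MSR1 was not (0.88, FDR 0.165), where 3.52% of all genes were. The 4 fibroblast and preadipocyte markers with an ID (PDGFRB, LUM, MFAP5 and PI16) summed to 777 to 1470 CPM at PreP, 925 to 4148 at PP1 and 970 to 4233 at PP2. Of these, LUM and PI16 were DEGs with higher levels at both PP1 and PP2, and PDGFRB and MFAP5 at neither. The endothelial KDR and ESAM summed to medians of 392, 396 and 413 CPM. The erythroid SLC4A1 had at most 0.162 CPM, and no listed T cell marker had an ID. Their part in the changes of PCK1, HSD17B12 and ACAT2 was not tested.

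Other genes of the same pathways were taken from lists of 111 symbols on glyceroneogenesis and triacylglycerol synthesis, de novo fatty acid synthesis, elongation and sterol synthesis. Beside the 3 members, 7 of them had an ID here and all 7 were tested. At PP1 0 of the 7 were DEGs, where 0.693% of all genes were DEGs with lower levels and 3.34% with higher. Of the 7, 6 had negative log2 fold changes, where 46.6% of all genes had, and their median was -0.41 where that of all genes was 0.04. At PP2 1 of the 7 was a DEG with a lower level, where 1.95% of all genes were, and 7 had negative values, where 41.1% of all genes had, and the median was -0.37 against 0.10. The DEG was INSIG1, which encodes the endoplasmic reticulum protein that retains the sterol-sensing SREBP complex. It fell by 2.46 at PP2 (SE 0.417, edgeR FDR 0.0024) from a PreP median of 175 CPM to 37.6. At PP1 its log2 fold change was -1.75 (SE 0.586, edgeR FDR 0.0748), and the PP1 library of B5169 had 393 CPM where the PP1 median was 30.1. Without the libraries of B5169 INSIG1 was a DEG at PP1 (-2.98, FDR 3.11e-05), the only 1 of the 7, where 3.99% of genes were DEGs with lower levels. At PP2 it was also the only 1 of the 7 called without B5169 (-2.72) and with cow as a block (-2.05).

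The other 6 genes were not DEGs at PP1 or PP2. BSCL2, the lipid droplet protein seipin, had log2 fold changes of -0.07 and -0.11 at PP1 and PP2. MCAT, the mitochondrial malonyl transferase, had -0.41 and -0.13. ELOVL2, an elongase of the complex in which HSD17B12 works, had at most 0.701 CPM in any library and fold changes of -0.69 and -0.63 with SEs of 0.663 and 0.866. ACOT4, an acyl-CoA thioesterase, had -0.33 and -0.37, and CYP51A1 had -0.54 and -0.42. INSIG2, the relative of INSIG1, had 0.25 and -0.03.

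Among 45 symbols of lipolysis, lipid droplet and close relatives of the members, 3 were tested. ADRB1, a receptor through which catecholamines start lipolysis, had log2 fold changes of -0.80 at PP1 (SE 0.354, edgeR FDR 0.167) and -0.08 at PP2. HCAR1, the lactate receptor that restrains lipolysis, had -0.29 and -0.17. Neither was a DEG. ACAA2, a mitochondrial thiolase related to ACAT2 that acts in fatty acid oxidation, fell by 1.04 at PP2 (SE 0.3, edgeR FDR 0.0420), from a PreP median of 422 CPM to 156, and was the only DEG of the 3 at PP2, where 1.95% of all genes were DEGs with lower levels. At PP1 it had -0.89 (FDR 0.0742), and without B5169 it was a DEG there too (-1.26, FDR 0.000756), where 3.99% of genes were DEGs with lower levels.

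**Figure D5:**
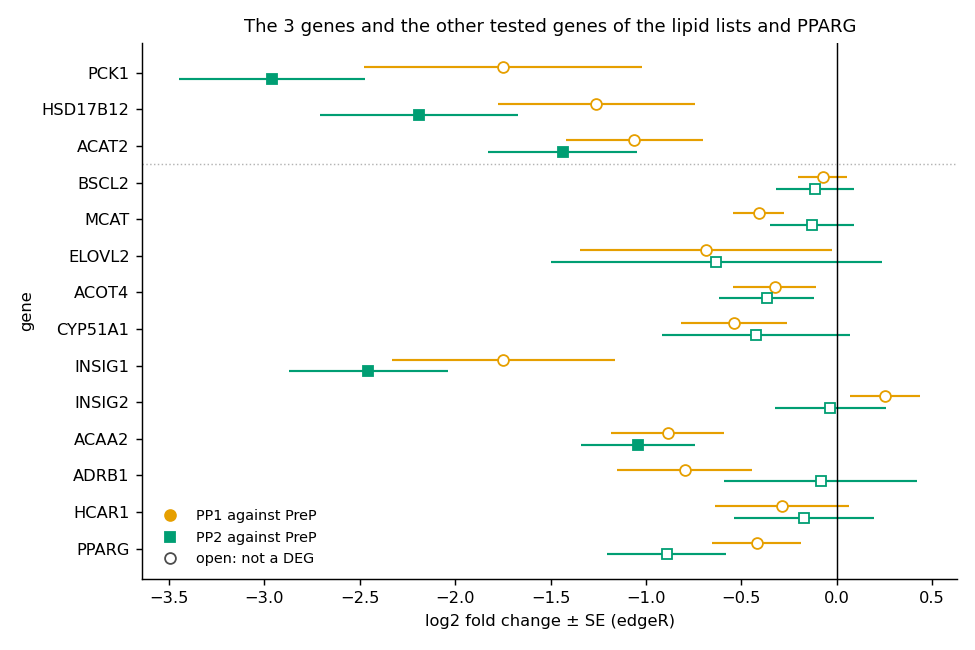
The edgeR log2 fold change with its SE (horizontal) of PCK1, HSD17B12, ACAT2, the other tested genes of the lipid lists and PPARG (vertical), for PP1 (circles) and PP2 (squares) against PreP. Filled symbols are DEGs: the 3 members, INSIG1 and ACAA2 at PP2, with PCK1 the farthest from 0 at -2.96.

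A further 56 genes of neighbouring metabolism were chosen by symbol after it was known which genes had an ID. Earlier results of these data were known too, and the lists share INSIG1, BSCL2, CYP51A1, ACAA2 and others with those above. Their counts beside the shares of all genes are therefore descriptions. Of 55 tested, 2 were DEGs with higher levels at PP1 and 0 with lower, where 3.34% and 0.693% of all genes were, a share near the background. At PP2 5 were DEGs with higher and 8 with lower levels, where 3.52% and 1.95% of all genes were. Without B5169 the PP1 counts were 5 higher and 11 lower, where 5.5% and 3.99% of all genes were, and the PP2 counts were 6 and 9, where 4.52% and 2.7% were. With cow as a block 0 were called at PP1, where 0.202% of all genes were called higher and 0.0545% lower, and at PP2 1 was called higher and 8 lower, where 0.779% and 1.39% of all genes were. With the block and without B5169, 5 were called higher and 15 lower at PP1, and 5 and 12 at PP2. Of all genes, 4.3% were then called lower at PP1 and 2.84% at PP2. Called higher were 740 of 18269 genes at PP1 and 404 of 18402 at PP2. Those lower at PP2 included PCYT2, which makes the ethanolamine precursor of phospholipids (log2 fold change -2.47, edgeR FDR 0.0014), and CHPT1, which completes phosphatidylcholine (-1.79, FDR 0.0120). FFAR4, a receptor for long-chain fatty acids (-2.48, FDR 0.0377), GPT2, a mitochondrial alanine transaminase that yields pyruvate (-2.80, FDR 0.0162), and BDH1, which interconverts ketone bodies (-4.42, FDR 0.0084), were also lower. Higher at PP2 were ANGPTL4, an inhibitor of lipoprotein lipase (1.18, FDR 0.0237), and PLTP, the phospholipid transfer protein (1.35, FDR 0.0251). The glycolytic genes PKM (1.44, FDR 0.0293) and PFKM (3.05, FDR 0.0438) were also called. The call of PFKM rested on the PP2 library of B5090, which carried the muscle genes PYGM and LMOD2 and had 1724 CPM of PFKM, where the medians were 24.3 at PreP and 22.1 at PP2. Without that library PFKM had 0.01 (FDR 0.991) and was not a DEG, while PKM (1.11, FDR 0.0439) was, and 4 genes of these lists were called higher and 10 lower, where 3.55% and 2.56% of all genes were.

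The genes most like each member over the 28 libraries were sought among 1480 genes with a symbol and a mean of at least 1 CPM. The r that follow are descriptions, since libraries share cows and time points. For PCK1 they were ACAA2 (r = 0.916), ISOC1 (0.905), the medium-chain acyl-CoA synthetase ACSM1 (0.860), the NAD synthesis enzyme NMNAT2 (0.858) and CHPT1 (0.857). After the mean of each time point was removed, these r were 0.860, 0.825, 0.754, 0.744 and 0.749. The median r of all 1480 genes with PCK1 was 0.03 and the 95th percentile was 0.663.

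For HSD17B12 the genes were LACTB2 (r = 0.927), the membrane peptidase gene MME (0.914), SYCP3 (0.912), the complex I assembly factor NDUFAF7 (0.909) and the peroxisome assembly gene PEX3 (0.896), and r was 0.861 to 0.936 with the time point means removed. By rank these 10 genes had Spearman's rho of 0.825 to 0.914 with their member, and without B5169 r was 0.851 to 0.924, which moved ACSM1 and CHPT1 to places 6 and 8 for PCK1 and PEX3 to place 6 for HSD17B12. For ACAT2 the values were lower, at 0.808 for CYB5B, 0.804 for INSIG1, 0.795 for BDH1, 0.794 for the ATP synthase subunit gene ATP5MC3 and 0.790 for HSD17B12. The corresponding rho were 0.798, 0.604, 0.780, 0.710 and 0.785, by which INSIG1 held place 36. In the 25 libraries without B5169 r was 0.770 to 0.804 and these 5 genes held places 1 to 5. No gene appeared in more than 1 of the 3 lists. MME had means of 24.2, 6.78 and 2.39 CPM at PreP, PP1 and PP2 (PP2 log2 fold change -3.35, edgeR FDR 0.0104).

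Among the same 1480 genes HSD17B12 held place 16 by likeness to PCK1 (r = 0.808) and ACAT2 place 104 (r = 0.613), and PCK1 held place 42 by likeness to ACAT2. With the time point means removed, r was 0.738 for PCK1 and HSD17B12, 0.681 for HSD17B12 and ACAT2 and 0.371 for PCK1 and ACAT2. PPARG held place 27 by likeness to PCK1 (r = 0.777), 71 to HSD17B12 (r = 0.689) and 184 to ACAT2 (r = 0.381).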

How the data were processed

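RNA-seq of 28 subcutaneous AT biopsies was analysed. The deposited values are raw read counts per Ensembl gene, which the authors made by mapping filtered reads to bosTau7 with HISAT2 2.1.0 and counting with HTSeq 0.6.1, without normalization; edgeR 3.4.2 is named in the submitters' processing notes. Strandedness, treatment of multi-mapped reads and annotation release were not given in the sources used here. The paper describes 12 cows, and the columns used here come from 11. Symbols came from the ID and symbol columns of a shortened copy of the study's supplementary count table, which named 1863 genes. No genome of the files' build was used, so no coordinates or sequences are given.

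Time point and cow were read from the labels. Each pair of time points was fitted in R 4.3.3 with edgeR 4.0.16 (TMM, a minimum of 3 reads for a gene in any library, quasi-likelihood test, Benjamini-Hochberg over all genes tested). DEGs had FDR under 0.05 and absolute log2 fold change over 1. The SE is the absolute log2 fold change divided by the square root of the test statistic. Single genes were tested on log2 CPM (prior count 1) by two-sided exact permutation of libraries, or by exact sign flips within cows, in SciPy 1.17.1, and correlations by exact permutations under 10 values and 100000 otherwise. The code was tested on simulated data. Libraries of the same cow are paired by design; their deviations from the group means correlated by 0.0979 (PreP and PP1), 0.0166 (PreP and PP2) and 0.102 (PP1 and PP2) on average over cows.

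The members, lists, tests and alternatives were chosen with earlier results of these data known. The genes named are the members, all tested genes of the lists and, for each member, the 5 genes of highest r, and a few genes of the added lists were named after their values were seen. A gene of these lists is not reported here and is left out of their counts. Alternatives were other filters, RLE or total-count scaling, edgeR's likelihood ratio test, DESeq2 1.42.0, a joint fit of the 3 time points, a block for cow, each cow left out and another prior count. Fits without the PP1 library of B5169, without the PP2 library of B5090, and with the block but without B5169, for the list genes too, and likeness without B5169, were added after the data were seen.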

Additional observations from a re-analysis of the deposited data

Results flagged for a closer look

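In 27 sets of values (levels, within-cow changes and ratios to PPARG of the 3 genes), the gap between an extreme value and its neighbour was compared with Dixon's 95% limit. Chance alone flags about 1 in 20 such sets, or 1.35 here, and 6 values were flagged, all from cow B5169. The sets reuse the same libraries, so these flags are not separate findings. They all come from her PreP and PP1 libraries.

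At PP1 her HSD17B12 level was 8.62 log2 CPM where the next library was at 6.68, and her ACAT2 level was 6.10 where the next was at 4.57. Her change of HSD17B12 from PreP to PP1 was 4.72 on the log2 scale, and the nearest other cow was at -0.79. Relative to PPARG, her PreP library had the lowest PCK1 (log2 ratio -3.20, next lowest -1.45) and the lowest HSD17B12 (-3.43, next lowest -0.81), and her PP1 library had the highest HSD17B12 (0.81, next highest -0.57). PCK1 at PP1 was not flagged, although her library had 196 CPM, since 2 other cows were above 50 CPM. Whether the PreP and PP1 libraries of B5169 carry the right labels was not tested.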

How the results depend on the processing

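The log2 fold changes of the 3 genes against PreP kept their direction under every alternative run. For PP1 against PreP, with 0 of 3 genes called, ACAT2 was called with the likelihood ratio test (-1.06) and DESeq2 (-1.08), and all 3 genes without the PP1 library of B5169 (-2.83 for PCK1, -1.99 for HSD17B12, -1.43 for ACAT2). With each cow left out the ranges were -2.98 to -1.50, -2.15 to -1.03 and -1.55 to -0.82, and for PP2 against PreP -3.37 to -2.81, -2.52 to -1.94 and -1.80 to -1.17. With the replicate block for cow, the calls of HSD17B12 (-2.47) and ACAT2 (-1.26) at PP2 were lost, and no other call of the 3 genes changed. With the block and without B5169 the PP1 values were -3.99, -2.35 and -1.42, all called, ACAT2 at PP2 was -1.48 and not called, and PCK1 for PP2 against PP1 turned to 0.14. The value of ACAT2 for PP2 against PP1 was 0.012 without the PP1 library of B5169, and -0.84 to 0.015 with each cow left out. The cause of these shifts was not tested.

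The 744 genes called at PP1 became 310 with all time points fitted jointly, 47 with the paired fit, 1526 with it but without B5169, 1630 without the PP1 library of B5169, 1168 with no fold threshold and 296 to 1748 with each cow left out. The 1015 at PP2 became 401 with the paired fit and 460 to 1334. The 0 for PP2 against PP1 became 160 with the likelihood ratio test, 176 in the joint fit, and 1 with the paired fit, with or without B5169.

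With each cow left out, the mean within-cow change at PP1 ran from -3.87 to -2.56 for PCK1, -2.33 to -1.10 for HSD17B12 and -1.39 to -0.66 for ACAT2, that of HSD17B12 at PP2 from -2.96 to -1.81, and that of PCK1 between PP1 and PP2 from -0.57 to 0.17. For PCK1 and ACAT2, r ran from -0.0958 to 0.709 at PP1 and from -0.389 to 0.126 at PP2, where scaling by total counts gave 0.0207. Without the 2 farthest values r was -0.0172 for HSD17B12 and ACAT2 at PP1 and -0.167 for the changes of PCK1 and ACAT2 at PP2. Relative to PPARG, PP2 against PP1 ran from -0.51 to 0.0099 for HSD17B12 and from -0.25 to 0.44 for ACAT2. The planned ratio to ADIPOQ, PLIN1 and FABP4 was not run, as these have no ID here. At 33 reads or more per library, counting error was small beside the spread between cows. With 8 pairs the smallest p of a sign-flip test is 0.0078, and 3 genes cannot speak for their pathways.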
